A study of Caenorhabditis elegans with 8 samples.

Results

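The 10 genes described here (dpy-4, dpy-5, dpy-13, dpy-17, sqt-1, sqt-3, rol-6, rol-8, bli-1 and bli-2) encode collagens of the nematode cuticle, and were chosen by name from the 14541 genes of a deposited RNA-seq table of Caenorhabditis elegans. All 10 were found in the table, each once. They are known for the body shape or movement defects of their mutants, which are short and fat (dumpy or squat), roll around their long axis, or carry blisters on the cuticle. The table compares pals-17(*) mutants with wild-type animals of strain N2, in 4 libraries each. The mutants carry the allele pals-17(syb3980), a premature stop early in the third exon, in strain ERT994, and were harvested after 72 h of growth at 20 °C, while the N2 animals, which carry no engineered allele, were harvested after 48 h at 20 °C. The authors chose different growth times so as to harvest both strains at about the L4 stage, the last larval stage. They report that the mutant populations averaged L4 but also held some older and younger animals. Each library was made from RNA of a pool of whole animals.

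The cuticle is an extracellular coat of crosslinked collagens that the epidermis secretes anew before each molt, so that collagen transcripts rise and fall once per larval stage. Cuticle collagens assemble as trimers after hydroxylation of their prolines in the endoplasmic reticulum, and are cleaved during secretion. Some of them are laid down in circumferential furrows, others on the ridges between the furrows (the annuli), and a few build the struts that join the layers of the adult cuticle. Mutants of pals-17 develop slowly and out of step with each other, so that each mutant library holds a mixture of stages. Growth time, mixture of stages and genotype all differ between the strains and cannot be told apart. A lower level in whole animals can also come from fewer epidermal cells or from less RNA in each, which cannot be told apart in these libraries.

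In pals-17(*) mutants 9 of the 10 collagen genes were lower than in the wild type, by 5.14-fold (rol-6) to 8.84-fold (bli-2). The exception was dpy-17, which was the least abundant of the 10 genes and did not pass the test. Levels are given in CPM, the reads of a gene in proportion to the size of its library after the scaling between libraries that the authors applied. The log2 CPM of all genes were compared between the strains with limma, with Benjamini-Hochberg adjustment over the 14541 genes, and a gene was called lower or higher at an adjusted p under 0.05. Of all genes tested, 41.2% were called lower and 42.5% higher in the mutants, so a call by itself says little about a gene in this comparison. Called lower by more than 2 log2 units (4-fold) were 7.48% of all genes, and 9 of the 10 collagen genes. The same 9 genes had every mutant library below every wild-type library, as had 39.0% of all genes. The median log2 fold change was −2.55 over the 10 collagen genes and 0.0041 over all genes. These counts depend in part on the scaling between libraries. With scaling to library totals the median over all genes became 0.60, and 3390 of the 14541 genes were called lower (6611 with quantile normalization). The same 9 collagen genes were called lower, and 4 of them by more than 2 log2 units (3 with quantile normalization). The share of all genes lower by more than 2 log2 units is not given here for these scalings.

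**Figure D1:**
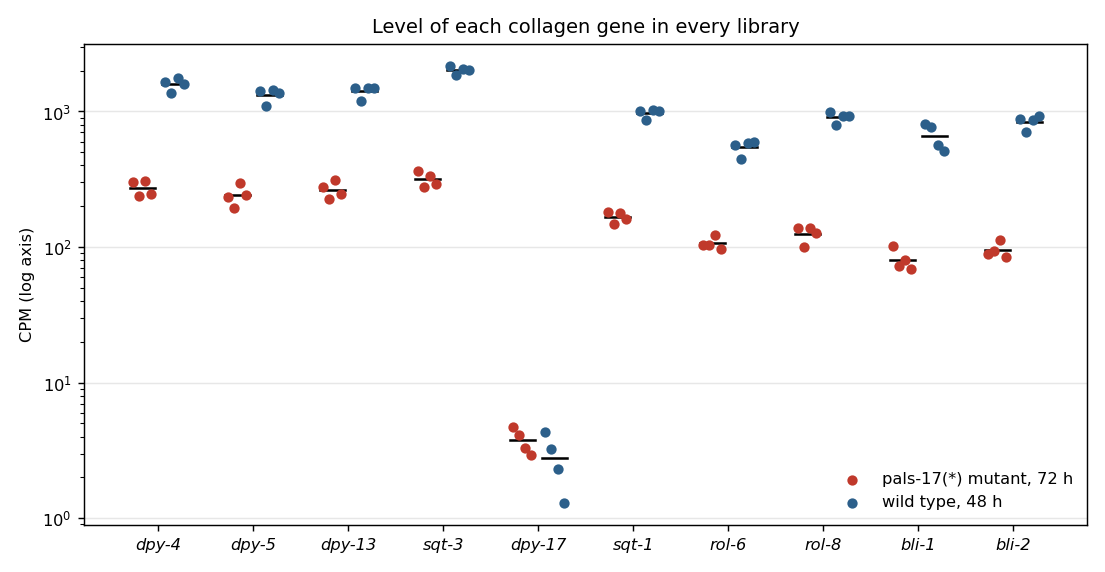
Level of the 10 collagen genes in each library, in CPM on a log axis, with the 4 pals-17(*) mutant libraries (red) left of the 4 wild-type libraries (blue) for each gene, replicates 1 to 4 in order, and a black line at the mean of each strain. For 9 genes all mutant libraries lie below all wild-type libraries. The libraries of dpy-17 overlap between the strains, at 2.95 to 4.68 CPM in mutants and 1.29 to 4.32 CPM in the wild type.

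The libraries held 18629170 to 21891721 reads on listed genes in mutants and 17871320 to 23378799 in the wild type, and a single read was worth 0.0362 to 0.0446 CPM in mutants and 0.0522 to 0.0681 CPM in the wild type. Counting error was therefore small for all collagens but dpy-17. Transcripts of pals-17 itself, the mutated gene, stood at 4.60, 4.45, 4.07 and 4.36 CPM in the mutant libraries, against 15.04, 14.3, 15.5 and 19.3 CPM in the wild-type libraries, with a log2 fold change of −1.86 (SE 0.114, adjusted p = 1.72e-07 from limma). Among markers of other tissues, all 10 germline and oocyte genes and all 5 sperm genes were higher in mutants (medians of 5.26 and 3.58 log2 units), with summed levels of 3109 to 3802 CPM against 56.5 to 354 CPM, and of 243 to 283 CPM against 9.33 to 33.8 CPM. Of 6 vitellogenin genes 5 were higher (median 1.18; summed 6383 to 9110 CPM in mutants, 1691 to 3394 CPM in the wild type). All 5 intestinal genes were lower (median −1.93; summed 4436 to 5416 CPM in mutants, 16053 to 18389 CPM in the wild type). Of 5 body wall muscle genes 4 were lower (median −0.66), but none with scaling to library totals. The part of these tissues in the collagen values was not tested.

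The epidermis, the tissue that makes these collagens, was followed by 10 of its genes that encode no collagen. Of these 5 were lower in mutants, 3 higher and 2 not called, with a median log2 fold change of −0.36 that became 0.23 with scaling to library totals and 0.16 with quantile normalization. Their summed level was 1352 to 1818 CPM in mutants and 1669 to 2151 CPM in the wild type, so that the sums overlapped. Opposite moves of single genes partly cancel in this sum. Taken singly, 6 of the 10 genes had every mutant library below every wild-type library, and 3 had every one above. Over all 14541 genes these counts were 5678 and 5991. None of the 10 was at 0 in any library. The gene with the highest level, vab-10, a spectraplakin of the epidermal attachment structures, averaged 601 ± 107 CPM in mutants and 679 ± 123 CPM in the wild type (SD, n = 4 each; log2 fold change −0.17, adjusted p = 0.305 from limma). Next was ifb-1, with a log2 fold change of −0.55 (adjusted p = 5.31e-05 from limma) that became 0.04 with scaling to library totals. The largest falls were those of che-14 (−2.22) and eff-1 (−1.35). The 3 higher genes were elt-1 (0.75), mup-4 (0.41, adjusted p = 0.00678 from limma) and elt-3 (0.28).

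DPY-13 is a collagen of the annuli, and DPY-4 and DPY-5 are further collagens whose loss makes the animals short and fat. The gene dpy-13 (WBGene00001074, chromosome IV, 4235614 to 4236710, forward strand, WBcel235) stood at 276, 225, 314 and 246 CPM in the mutant libraries, against 1487, 1196, 1501 and 1500.3 CPM in the wild-type libraries. The highest mutant library was far below the lowest wild-type library, and wild-type replicate 2 lay apart from the other 3. The log2 fold change was −2.43 (SE 0.115, adjusted p = 3.14e-08 from limma). For dpy-4 (WBGene00001066, chromosome IV, 14985543 to 14986784, reverse strand) the levels were 299.6, 238, 307 and 245 CPM in mutants and 1637, 1376, 1758 and 1605 CPM in the wild type. Again the strains did not overlap, with mutants at 17.1% of the wild-type mean and a log2 fold change of −2.55 (SE 0.107, adjusted p = 1.51e-08 from limma). Its neighbour atln-2, which spans dpy-4 on the opposite strand, was at 3.68 CPM in mutants and 3.51 CPM in the wild type. The sources used here do not say whether reads were counted by strand, but dpy-4 lies within an intron of atln-2, and the annotated exons share 0 bases.

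Levels of dpy-5 (WBGene00001067, chromosome I, 5432197 to 5433051, reverse strand), which lies in a single exon, were 233, 195, 297 and 243 CPM in mutants and 1410, 1098, 1432 and 1364 CPM in the wild type. The mutant libraries spread more widely relative to their mean than those of the wild type, with coefficients of variation of 17.4% and 11.7%, but stayed below all of them. Its log2 fold change was −2.46 (SE 0.130, adjusted p = 6.41e-08 from limma). Within a library dpy-5 and dpy-13 kept close to each other. The log2 ratio of dpy-5 over dpy-13 was −0.14 ± 0.108 in mutants and −0.10 ± 0.0348 in the wild type (SD, n = 4 each), a difference of −0.03 that an exact 2-sided permutation test over the 70 relabellings did not tell from 0 (p = 0.486, adjusted p = 0.648 over the 4 pairs tested).

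SQT-3 is an essential collagen that is cleaved by the protease DPY-31, and DPY-17 is known to be required for its delivery to the cuticle. The gene sqt-3 (WBGene00005018, chromosome V, 12352745 to 12354320, forward strand) had the highest read count of the 10 in both strains, with 362, 277, 337 and 294 CPM in mutants, against 2170, 1856, 2050 and 2022 CPM in the wild type. The strains lay far apart, with small spread within each, and the log2 fold change was −2.68 (SE 0.0926, 95% interval −2.89 to −2.47, adjusted p = 4.86e-09 from limma). In contrast, dpy-17 (WBGene00001076, chromosome III, 5107330 to 5108492, forward strand) was at 4.68, 4.09, 3.32 and 2.95 CPM in mutants and at 4.32, 3.24, 2.33 and 1.29 CPM in the wild type. The strains overlapped, with wild-type replicate 1 above 3 of the mutant libraries and wild-type replicate 4 below all other libraries. These values rest on few reads, 105, 113, 89 and 77 in mutants and 69, 62, 36 and 19 in the wild type. The fitted log2 fold change of dpy-17 was 0.53 (SE 0.334, 95% interval −0.22 to 1.27, adjusted p = 0.166 from limma). This value depends on the scaling and on single libraries: it was 1.12 with scaling to library totals (adjusted p = 0.00997 from limma) and −0.44 with quantile normalization (adjusted p = 0.166), and leaving out wild-type replicate 1 gave 0.78 (adjusted p = 0.0391), while leaving out wild-type replicate 4 gave 0.21 (adjusted p = 0.430). With the replicate number as a block it stayed at 0.53 and passed the threshold (adjusted p = 0.0493 from limma).

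The ratio of dpy-17 over sqt-3 in the same library does not depend on the scaling between libraries. On the log2 scale it was −6.26, −6.07, −6.66 and −6.63 in the mutant libraries, against −8.96, −9.15, −9.76 and −10.57 in the wild-type libraries. All 4 mutant libraries were above all wild-type libraries, by a mean of 3.21 log2 units, so that dpy-17 had 1.18% of the sqt-3 level in mutants and 0.128% in the wild type (back-transformed means). An exact 2-sided permutation test gave p = 0.0286, the smallest that 4 libraries against 4 can give, which after adjustment over the 4 pairs was 0.114 and did not pass. A fit with limma over all genes, with each value taken relative to sqt-3 of the same library and chosen after the data were seen, gave 3.21 (SE 0.322, 95% interval 2.49 to 3.93, adjusted p = 2.38e-06). In that fit 94.6% of the 14540 other genes were higher relative to sqt-3, so the call sets dpy-17 with most genes of the table.

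SQT-1 and ROL-6 are collagens of the layered cuticle in which different mutations give squat or rolling animals, and the well-known dominant roller marker of worm transgenesis is an allele of rol-6. The gene sqt-1 (WBGene00005016, chromosome II, 11336693 to 11337837, reverse strand) stood at 183, 148, 178 and 160.0 CPM in mutants and at 1014, 859, 1032 and 1009 CPM in the wild type. Both strains were tightly grouped apart from wild-type replicate 2, and the log2 fold change was −2.55 (SE 0.0877, adjusted p = 4.73e-09 from limma). For rol-6 (WBGene00004397, chromosome II, 8733050 to 8734239, forward strand) the levels were 103, 104, 123 and 95.9 CPM in mutants, against 567, 448, 582 and 593 CPM in the wild type. This was the smallest fall among the 9 genes, with mutants at 19.4% of the wild-type mean and a log2 fold change of −2.36 (SE 0.105, 95% interval −2.60 to −2.12, adjusted p = 2.22e-08 from limma). The log2 ratio of rol-6 over sqt-1 within a library was −0.65 ± 0.157 in mutants and −0.84 ± 0.0716 in the wild type (SD, n = 4 each). The strains overlapped in this ratio, and the difference of 0.19 did not pass an exact permutation test (p = 0.0857, adjusted p = 0.171).

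ROL-8 is another collagen whose mutants roll. The gene rol-8 (WBGene00004398, chromosome II, 7544108 to 7545335, forward strand) was at 137, 101, 137 and 127 CPM in mutants and at 992, 797, 919 and 919 CPM in the wild type. Replicate 2 was the lowest library in each strain, and the strains were well separated. The mutants had 13.9% of the wild-type mean, with a log2 fold change of −2.86 (SE 0.108, adjusted p = 8.39e-09 from limma).

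BLI-1 and BLI-2 are collagens of the struts of the adult cuticle, and loss of either lifts the outer layer off as fluid-filled blisters. Both are made before the molt to adulthood, and they showed the largest falls of the 10 genes. The gene bli-2 (WBGene00000252, chromosome II, 5651394 to 5652434, reverse strand) stood at 89.0, 93.5, 112 and 85.0 CPM in mutants, against 875, 704, 860 and 922 CPM in the wild type. Mutants had 11.3% of the wild-type mean, and no library came near the other strain (log2 fold change −3.15, SE 0.107, 95% interval −3.39 to −2.91, adjusted p = 4.53e-09 from limma). The gene zyg-1, a kinase of centriole assembly, spans bli-2 on the opposite strand and was higher in mutants, at 39.6 CPM against 18.9 CPM in the wild type (log2 fold change 1.07, adjusted p = 6.01e-07 from limma). The annotated exons of bli-2 and zyg-1 share 0 bases, since bli-2 lies within an intron of zyg-1.

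For bli-1 (WBGene00000251, chromosome II, 10708960 to 10712156, forward strand) the levels were 102, 72.4, 80.1 and 68.5 CPM in mutants and 811, 773, 564 and 508 CPM in the wild type. Replicate 1 was the highest and replicate 4 the lowest library in each strain, and the wild-type libraries of bli-1 spread more widely than those of any other gene of the set but dpy-17. The log2 fold change was −3.03 (SE 0.172, 95% interval −3.41 to −2.64, adjusted p = 1.04e-07 from limma). The exons of bli-1 share 7 bases with those of dph-2 on the opposite strand, which was at 20.4 CPM in mutants and 17.6 CPM in the wild type. It is the longest of the 10 transcripts, with 3010 bases of annotated exon where the other 9 have 855 to 1422. Long genes also differed between the libraries, followed here by 331 genes with at least 5000 exon bases and a mean log2 CPM of 4 or more. Their median deviations from the strain means were 0.279, 0.0775, −0.162 and −0.185 log2 units in mutant replicates 1 to 4. In wild-type replicates 1 to 4 they were 0.105, 0.117, −0.0531 and −0.181. The deviations of bli-1 were 0.357, −0.142, 0.0047 and −0.220 in mutants and 0.317, 0.248, −0.208 and −0.357 in the wild type. The shorter dpy-17, with 1111 exon bases, also went down from replicate 1 to 4 in both strains. It deviated by 0.340, 0.144, −0.156 and −0.327 in mutants and by 0.754, 0.338, −0.131 and −0.960 in the wild type. The part of transcript length in the spread of bli-1 was not tested. The log2 ratio of bli-1 over bli-2 was −0.24 ± 0.304 in mutants and −0.36 ± 0.454 in the wild type (SD, n = 4 each), with overlapping strains (difference 0.12, exact permutation p = 0.686, adjusted p = 0.686).

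**Figure D2:**
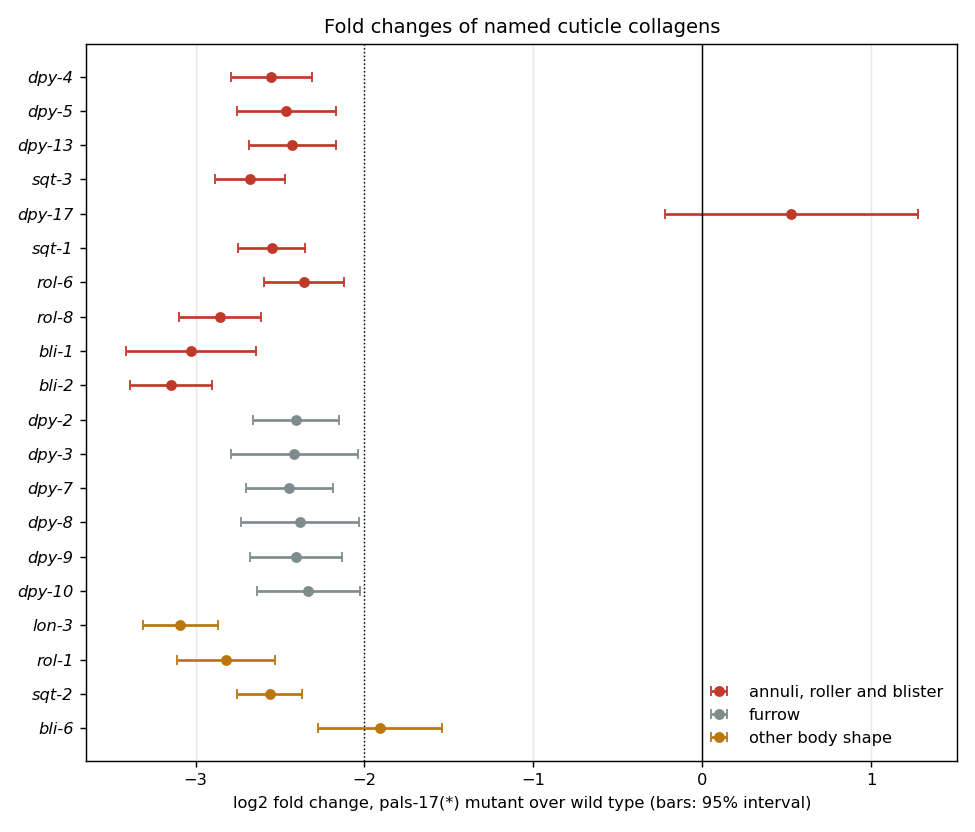
Log2 fold change of pals-17(*) mutants over the wild type for the 10 collagen genes (red), the furrow collagens (grey) and other collagens of body shape (ochre), with 95% intervals from limma as bars, a solid line at 0 and a dotted line at −2. Values run from −3.15 (bli-2) to −1.91 (bli-6), apart from dpy-17 at 0.53, whose interval crosses 0.

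The falls of the 9 genes were close to each other but not equal. When each gene was taken relative to sqt-3 of the same library (limma over 14540 genes, a comparison added after the data were seen), bli-2 was lower by a further 0.47 log2 units (SE 0.140, adjusted p = 0.0083), a call that 2.03% of the genes had in this direction and that held without any single library (adjusted p between 0.00643 and 0.0288). The other strut collagen, bli-1, was at −0.35 (95% interval −0.75 to 0.05, adjusted p = 0.0831 from limma), and passed the threshold without wild-type replicate 4 (−0.47, adjusted p = 0.0245). In the other direction 94.6% of the genes were called higher relative to sqt-3, so a higher call says little about a gene. With so many genes called, the adjustment hardly changed the p-values of this limma fit. That of bli-2 went from 0.00790 to 0.0083 and that of rol-6 from 0.0402 to 0.0416, so they are nearly unadjusted. Relative to sqt-3, rol-6 was higher by 0.32 (adjusted p = 0.0416 from limma), but this call was lost when any library other than mutant replicate 1 was left out (adjusted p of 0.0506 to 0.107). For rol-8 the difference from sqt-3 was −0.18 (95% interval −0.43 to 0.08), and for dpy-4 and sqt-1 it was 0.13 (95% intervals −0.12 to 0.38 and −0.11 to 0.37). The values of dpy-5 and dpy-13 were 0.22 and 0.25 (adjusted p = 0.151 and 0.0640 from limma), and both passed only without mutant replicate 1 (adjusted p = 0.0440 and 0.0294).

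The composition of the set was similar in the 2 strains for the genes with the most reads. Of all reads on the 10 genes, sqt-3 took 17.8 to 20.2% in mutants and 19.2 to 20.4% in the wild type, and dpy-4 took 15.6 to 16.7% and 14.9 to 16.4%. The share of dpy-13 was 15.4 to 16.6% in mutants and 13.1 to 14.4% in the wild type, without overlap. The share of bli-2 was 4.97 to 6.41% in mutants and 7.72 to 8.82% in the wild type, and that of rol-8 6.92 to 8.13% and 8.59 to 9.05%, so both genes took a smaller part of the set in every mutant library. The shares of rol-6 were 5.75 to 7.15% in mutants and 4.92 to 5.68% in the wild type. For dpy-17 they were 0.176 to 0.281% and 0.0124 to 0.0394%. Shares within a library sum to a fixed total, so a lower share of 1 gene raises those of the others, and no test was made on them.

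**Figure D3:**
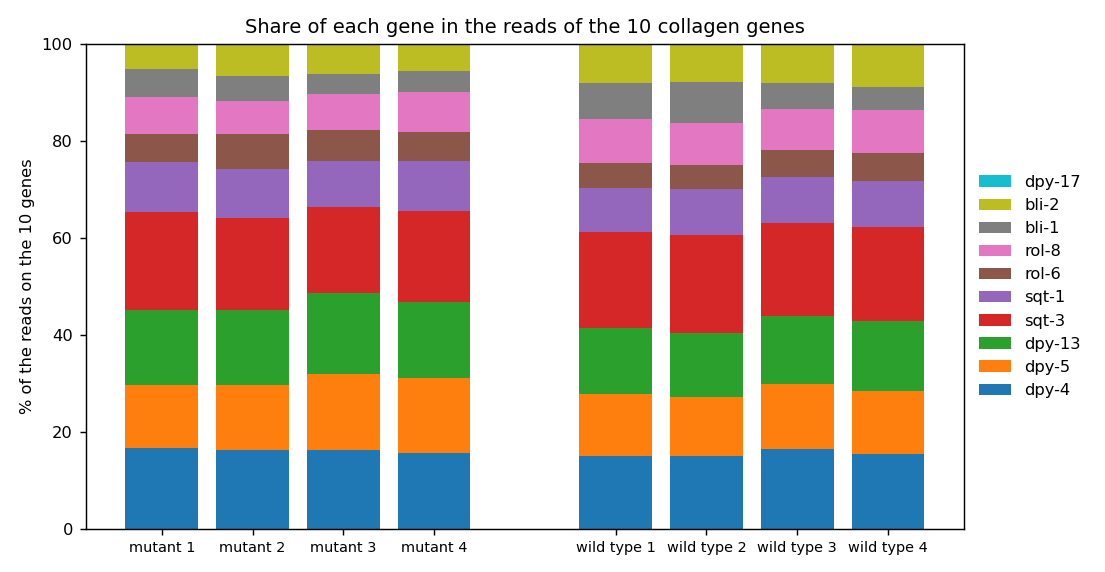
Share of each of the 10 collagen genes, in percent of the reads on the 10 genes, in the 4 mutant libraries (left) and the 4 wild-type libraries (right). The band of bli-2 is 4.97 to 6.41% high in mutants and 7.72 to 8.82% high in the wild type, while sqt-3 takes about the same band in both and dpy-17 is too small to be seen.

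Per kilobase of annotated exon, which allows levels of different genes to be compared, the order of the 10 genes was alike at both ends in the 2 strains. In mutants dpy-5 (283 CPM per kilobase), dpy-4 (271), dpy-13 (268) and sqt-3 (223) stood at the top, and the libraries of neighbours in this order overlapped. They were followed by sqt-1 (160.2), rol-8 (115.2), rol-6 (97.7) and bli-2 (95.5), of which the last 3 overlapped as neighbours, and then without overlap by bli-1 (26.9) and dpy-17 (3.38). In the wild type the first 4 were dpy-4 (1588), dpy-5 (1551), dpy-13 (1437) and sqt-3 (1424), again with overlap between neighbours. Next came sqt-1 (937), bli-2 (845) and rol-8 (831), overlapping as neighbours, then rol-6 (503), bli-1 (221) and dpy-17 (2.52), each below the one before in every library. Both bli-2 and rol-8 thus overlapped with sqt-1 in the wild type but not with rol-6, while in mutants they overlapped with rol-6 but not with sqt-1.

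Replicates of a strain deviated together. Wild-type replicate 2 was the lowest wild-type library for 8 of the 10 genes, all but dpy-17 and bli-1, for which replicate 4 was lowest. In mutants replicate 3 was the highest for 6 genes and replicate 1 for the other 4 (sqt-1, sqt-3, dpy-17 and bli-1), while the lowest was replicate 2 for 6 genes and replicate 4 for 4. The log2 range over the 4 wild-type libraries was 1.71 for dpy-17, 0.67 for bli-1 and 0.23 to 0.41 for the other 8. The wild-type libraries also differed in genes of the adult cuticle and of the germline. The adult cuticle collagen gene col-19 stood at 90.6, 37.8, 67.0 and 13.5 CPM in wild-type replicates 1 to 4. In the same libraries gld-1, which encodes a germline RNA-binding protein, was at 64.3, 41.8, 29.8 and 7.56 CPM. Their part in the spread of the collagen genes was not tested. Outside the set, the genes whose deviations from the strain means were most like the mean deviation of the 10 genes were col-17 (Pearson's r = 0.924), T06E6.1 (0.905), nrde-1 (0.897), sqt-2 (0.892) and Y110A7A.9 (0.879), over 8 libraries and among genes with a mean log2 CPM of 4 or more. These are descriptions over libraries that share depth and scaling, and of the 5 only the collagen genes col-17 and sqt-2 fell by more than 2 log2 units in mutants (−2.33 and −2.56).

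**Figure D4:**
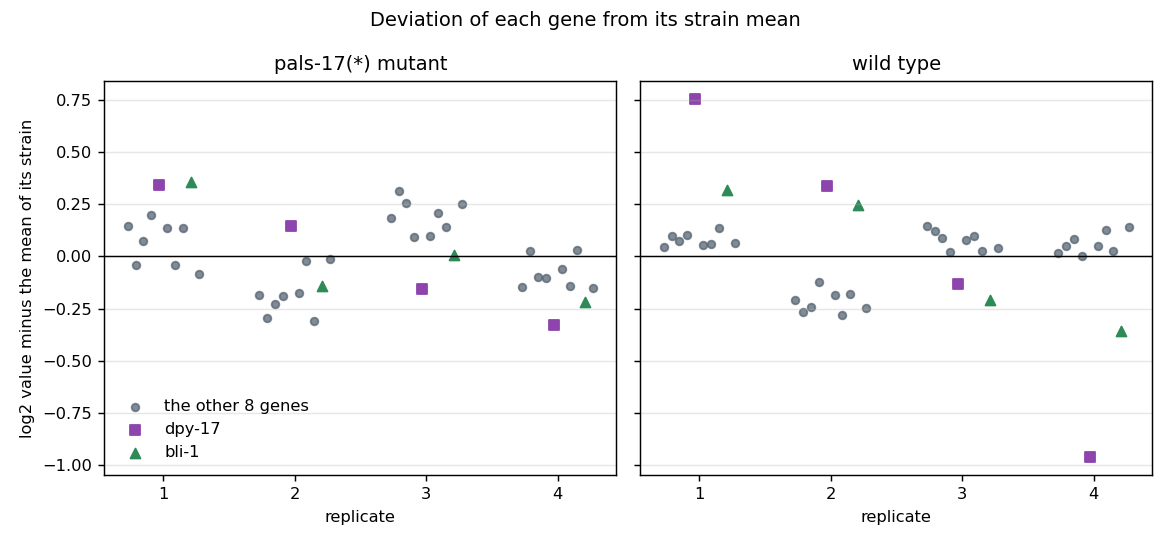
Deviation of each collagen gene from the mean log2 CPM of its strain, in log2 units, in replicates 1 to 4 of pals-17(*) mutants (left) and of the wild type (right). In the wild type 8 genes (grey circles) are lowest in replicate 2, while dpy-17 (purple squares) and bli-1 (green triangles) are highest in replicate 1 and lowest in replicate 4.

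Other collagens of body shape fell to a like extent. All 6 furrow collagens (dpy-2, dpy-3, dpy-7, dpy-8, dpy-9 and dpy-10) were lower by more than 2 log2 units, with a median of −2.40 and a range of −2.45 to −2.33. The most abundant, dpy-8 and dpy-7, averaged 52.4 ± 9.16 and 36.6 ± 4.47 CPM in mutants, against 273 ± 51.4 and 200 ± 27.3 CPM in the wild type (SD, n = 4 each). The ratio of the summed reads of the 10 genes to those of the furrow collagens was 7.45 to 8.45 in mutants and 6.84 to 11.5 in the wild type, so the strains overlapped. Of 4 further body shape collagens all 4 were lower (median −2.69), namely lon-3 (−3.09), rol-1 (−2.82), sqt-2 (−2.56) and bli-6 (−1.91), and dpy-14 was not analysed here.

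The numbered collagen genes of the col family were divided between lower and higher. Of 117 such genes 64 were lower in mutants, 39 higher and 14 not called, with a median log2 fold change of −0.93 and a range of −3.46 to 8.95. Lower by more than 2 log2 units were 28 (23.9%, against 7.48% of all genes), and higher by more than 2 were 30 (25.6%, against 20.6% of all genes). The 2 with the highest mean log2 CPM over the 8 libraries moved in opposite directions: col-160 was at 2559 ± 226 CPM in mutants and 476 ± 123 CPM in the wild type (log2 fold change 2.45), and col-73 at 394 ± 48.9 and 2732 ± 302 CPM (−2.79; SD, n = 4 each). Reads on col genes took 6.43, 6.18, 6.36 and 6.55% of the reads in the mutant libraries, against 2.46, 2.29, 2.45 and 2.40% in the wild-type libraries. The 10 genes described here took 0.215, 0.184, 0.231 and 0.192% in mutants and 0.9001, 0.746, 0.848 and 0.858% in the wild type. Of the reads on all 137 named collagens, their share was thus 2.81 to 3.45% in mutants and 22.3 to 24.2% in the wild type. Near-identical col genes can share reads, which makes values of single members of that family less certain.

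Genes of collagen processing and crosslinking were compared next, in a list of 12 genes of which 11 were tested and bli-5 was not analysed here. Of the 11 genes 7 were lower, 2 higher and 2 not called (median −0.48), where 41.2% of all genes were called lower and 42.5% higher. The direction of this list turned with scaling to library totals, which gave 4 lower, 5 higher and a median of 0.12. The falls were largest for the prolyl 4-hydroxylase, whose subunits are encoded by pdi-2, dpy-18 and phy-2. Expression of pdi-2 averaged 787 ± 98.4 CPM in mutants and 4049 ± 590 CPM in the wild type (SD, n = 4 each), a log2 fold change of −2.36 (adjusted p = 5.12e-08 from limma), and those of dpy-18 and phy-2 were −2.26 and −1.82. For dpy-11, a thioredoxin-like protein needed for cuticle formation, the log2 fold change was −1.80, and for dpy-31, the protease that acts on SQT-3, it was −0.69, which became −0.09 with scaling to library totals. The values of tmem-131 (collagen secretion) and of bli-4 (a proprotein convertase) were −0.48 and −0.19, and turned to 0.12 and 0.40 with scaling to library totals. The dual oxidase bli-3, which crosslinks collagens, was at −0.04 (adjusted p = 0.726 from limma) and the peroxidase mlt-7 at 0.13 (adjusted p = 0.115), and neither was called. Other scalings called both: bli-3 was higher with library totals (0.56, adjusted p = 0.000233 from limma) and lower with median centring (−0.31, adjusted p = 0.0105), and mlt-7 was higher with library totals (0.72, adjusted p = 7.33e-06) and with quantile normalization (0.27, adjusted p = 0.00554). Both genes called higher act with bli-3: tsp-15 (0.47, adjusted p = 0.00732 from limma) and doxa-1 (0.22, adjusted p = 0.0458), but with quantile normalization they were at −0.23 and −0.09.

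Of 11 transcription factors and regulators of the epidermis and the molting cycle, 8 were lower, 2 higher and 1 not called (median −1.23). Among all genes 41.2% were called lower and 42.5% higher. The highest mean log2 CPM over the 8 libraries were those of lin-42, the period homolog that times the molts, at 105 ± 12.2 CPM in mutants and 558 ± 25.7 CPM in the wild type (log2 fold change −2.42), and myrf-1, a membrane-bound transcription factor, at 75.02 ± 12.5 and 370 ± 61.6 CPM (−2.30; SD, n = 4 each). Also lower were bed-3 (−2.17), blmp-1 (−1.94), grh-1 (−1.68), lin-29 (−1.23), which acts in the switch from larva to adult, nhr-25 (−1.20) and myrf-2 (−1.19). The 2 higher genes encode GATA factors of the epidermis, elt-1 (0.75, adjusted p = 9.20e-05 from limma) and elt-3 (0.28, adjusted p = 0.0137, but 0.0053 with median centring, not called). The nuclear receptor gene nhr-23, a driver of the molting cycle, was at 0.23 (adjusted p = 0.223 from limma) and not called, but its call depended on the scaling: it was at −0.05 with median centring (adjusted p = 0.816), and was called higher with library totals (0.83, adjusted p = 0.00117) and with quantile normalization (0.40, adjusted p = 0.0355).

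Some collagens of the adult cuticle other than bli-1 and bli-2 moved the other way. Of 5 adult cuticle genes, which include bli-1 and bli-2, the other 3 were higher in mutants: col-19 averaged 2542 ± 151 CPM in mutants and 52.2 ± 33.7 CPM in the wild type (SD, n = 4 each; log2 fold change 5.92), and col-7 and col-62 had log2 fold changes of 3.01 and 3.02 (adjusted p = 0.00477 and 0.00429 from limma).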

How the data were processed

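Total RNA of whole animals was sequenced as poly(A)-selected paired-end libraries, 4 of pals-17(*) mutants and 4 of the wild type. The authors used Rsubread for mapping and limma-voom, run in Galaxy, for normalization, and dropped weakly expressed genes beforehand. The submitters' processing notes also name featureCounts. The deposited values are log2 CPM, where 0.5 is added to the reads before division by a scaled library size. The method of scaling, the annotation and the use of strands are not given in the sources used here. The scaled library sizes were 1.20 to 1.26 times the recovered totals in mutants and 0.793 to 0.822 times in the wild type. The worth of a single read was set from the lowest value of each library, taken as a gene without reads, and then refined on all values. It gave the reads behind each value, and 100% came within 0.01 of a whole number (largest distance 0.000692). Of 14542 entries 1 names no gene (0.00275 to 0.00568% of the reads) and was left out. Intervals on reads cover counting error only.

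The deposited log2 values were fitted with limma 3.58.1 in R 4.3.3 (trend in the prior variance, no weights, 2-sided, Benjamini-Hochberg over 14541 genes). The fit was also tested on simulated data, in which only few genes differed and the library sizes were given. That test does not bear on the scaling between libraries. Values relative to sqt-3 were fitted without the trend. Ratios of 4 pairs of genes were compared by exact permutation. The collagen genes and all lists were chosen with earlier results of these data known, and the lists come from general knowledge of the worm. Named in the text are all 10 genes of the set and the 5 genes most alike in deviation. The 2 most abundant genes are named for each collagen list and for the processing, regulator and epidermal lists. Genes called against the direction of their list are named for the processing, regulator and epidermal lists. Markers of other tissues are given as lists, apart from gld-1. Other list genes were named after their values were seen. Alternatives were voom weights, no trend, robust empirical Bayes, a block for the replicate number, an offset of 0.1 or 1 CPM, a filter on low values, 3 other scalings and leaving out each library. Coordinates and exon lengths come from Ensembl release 115 (WBcel235). Nothing in the labels says that replicates came from separate cultures, so p-values measure the spread between these samples, which may be technical. Sequences were not used here.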

Additional observations from a re-analysis of the deposited data

Results flagged for a closer look

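For 3 of the collagen genes wild-type replicate 2 lay apart from the other wild-type libraries, its gap to the nearest of them taking a larger part of the whole log2 range than Dixon's limit for 4 samples allows. For dpy-13 the gap was 0.957 of the range, since replicate 2 had 1196 CPM (others 1487 to 1501 CPM). For sqt-1 it was 0.878 (859 CPM, others 1009 to 1032 CPM), and for rol-6 it was 0.841 (448 CPM, others 567 to 593 CPM). Chance alone gives such a gap in about 5% of groups, and 20 groups were examined, but the 3 values come from the same library and are not independent. The falls of dpy-13, sqt-1 and rol-6 in mutants kept their direction and their call without this library.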

How the results depend on the processing

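For the 9 collagen genes other than dpy-17, all 162 log2 fold changes over 18 alternative fits kept their direction and call (−3.42 to −1.58, highest adjusted p = 1.48e-06 from limma). Scaling to library totals, median centring and quantile normalization moved the median of all genes to 0.60, −0.27 and −0.12, and the share of calls that were lower, 49.2% as deposited, to 27.9, 58.1 and 53.8%. With totals, 4 of the 10 genes were lower by more than 2 log2 units and 1 was higher, 4 processing genes were lower and 5 higher, and dpy-17 was at 1.12 (adjusted p = 0.00997 from limma). With quantile normalization 3 of the 10 were lower by more than 2, and dpy-17 was at −0.44. The share of all genes beyond 2 log2 units is not given for these scalings, so these counts cannot be set against it. With median centring 0 processing genes and 1 regulator were higher. Without single libraries, 0 to 1 of the 10 genes (dpy-17) were higher, dpy-17 ranged over 0.21 to 0.78, 6 to 7 processing genes were lower and 1 to 3 higher, and 2 to 3 regulators were higher. The difference in bli-1 over bli-2 ranged over −0.0473 to 0.28 and was below 0 without wild-type replicate 4 (−0.0473) or mutant replicate 1 (−0.0288), and that in dpy-5 over dpy-13 ranged over −0.0757 to 0.0023, with the value above 0 without mutant replicate 1. The fit relative to sqt-3 gave 3.21 for dpy-17 (2.89 to 3.42 without single libraries). Over all genes the deviations of same-numbered libraries had correlations of 0.0731, 0.0621, 0.0076 and −0.0167, so the numbers were not taken to pair the samples. Over the 10 collagen genes they were 0.692, 0.521, 0.791 and 0.745, but mutant replicates 1, 2 and 3 each had a higher correlation with a wild-type library of another number (0.877, 0.646 and 0.888). With the replicate block 1 of the 10 genes, dpy-17, was higher (0.53, adjusted p = 0.0493 from limma), as was 1 processing gene. Depth limits dpy-17, which had 384 reads in mutants and 186 in the wild type. The causes of these differences were not tested.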
